A study of Mus musculus with 3 samples.

Results

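The genes described here encode the Wnt ligands, their Frizzled receptors and co-receptors, the R-spondins that amplify the signal, and genes that Wnt signalling itself switches on. They were picked by a rule on gene symbols, set with earlier results of these data known. Of the 18193 genes on the array 40 matched, represented by 81 of its 45101 probe sets. There were 19 Wnt ligands, 10 Frizzled receptors, 3 co-receptors (Lrp5, Lrp6 and Ror2), 4 R-spondins and 4 target or effector genes (Axin2, Lef1, Nkd1 and Nkd2). A further gene of the same rule, Tcf7, was not analysed here. RNA came from dental papillae, the mesenchyme of the tooth germ that gives rise to the dental pulp and the odontoblasts, of ICR mice at embryonic day 16 (E16), embryonic day 18 (E18) and postnatal day 3 (P3). The labels give no genotype, treatment or sex, and the papillae had been freed with enzymes from first molar germs of the mandible. Each RNA was a pool of more than 20 papillae hybridised to 1 array, so each stage is 1 sample and no spread between samples can be had. No test was possible, and each difference below is between 2 arrays.

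Wnt proteins are secreted, lipid-bearing ligands. In the canonical branch they bind a Frizzled receptor together with Lrp5 or Lrp6, which stops the breakdown of beta-catenin and lets it act with Lef1 and the related TCF factors on genes such as Axin2. In the other branches, such as that of Wnt5a with Ror2, the signal orients and moves cells without beta-catenin. In the tooth germ both epithelium and mesenchyme send and receive Wnt signals, and mice that lack Lef1 have tooth germs that stop at the bud stage.

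Values are array signals, recovered from the deposited ratios, and may be understated by a whole factor that all 3 arrays share. Such a factor leaves the plain ratios between stages intact, but not what depends on the level itself. A gene was represented by its brightest probe set, that with the highest mean recovered signal. A comparison used a gene where 1 or both of its arrays reached 82.0, the median of all recovered signals, and lower values were raised to this floor. Where 1 side lay under the floor, the fold is written as a bound. An understated signal could therefore change which genes count as measured, which folds are bounds and which probe set is brightest. A difference of at least 2-fold is called higher or lower. Signals of different probe sets are not on 1 scale and are not set against each other gene by gene. Sums over lists of cell type markers do add them, so the brightest probe sets weigh most in a sum.

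Markers of the papilla and of other tissues were set beside the label. Of 11 dental mesenchyme genes with a probe set, 10 reached the floor at E16 and all 11 at E18 and at P3. The one below it at E16 was Col1a1, whose other probe set read 1341.9 there. Of all 18193 genes, 12540 reached the floor on at least 1 array, so such counts cannot settle the label. Genes of dental epithelium were present as well, with 11 of 12 reaching the floor at E16, 11 at E18 and 10 at P3. The sum of their 12 signals was 8005.2 at E16, 22868.9 at E18 and 5323.1 at P3. Of 7 enamel genes, 2 reached the floor at E16, 5 at E18 and 7 at P3. Spike-in transcripts added at hybridisation read a median 2.17 times as high on the E18 array as on the E16 array over 18 probe sets, and 1.04 times on the P3 array. The ratio of 3' to 5' actin signal, which follows RNA and labelling quality, was 3.87 times that of E16 at E18 and 2.46 times at P3. The same ratio for Gapdh was 1.42 times that of E16 at E18 and 0.355 times at P3, so these controls went opposite ways at P3. In pooled tissue, fewer cells of a type and less RNA per cell cannot be told apart.

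Of the 40 genes, 30 reached the floor on at least 1 array and 20 on all 3, where 12540 and 9861 of all 18193 genes did. The differences lay mainly between E16 and the later arrays. At E18 against E16, 6 of 28 measured genes were at least 2-fold lower (21.4%, against 8.13% of all measured genes) and 3 were higher (10.7%, against 8.09%). At P3 against E18, 1 of 28 was lower (3.57%, against 11.8%) and 0 were higher (against 4.08%). At P3 against E16, 7 of 29 were lower (24.1%, against 15.6%) and 2 were higher (6.9%, against 6.58%), so the share of higher genes was near that of all genes. Quantile normalization turned this split into 4 higher and 5 lower, and scaling to the median of genes above the floor on all arrays into 3 higher and 4 lower, as the median log2 difference of all genes moved to 0.02 and 0.09. Of all genes, 9.89% were then higher and 10.5% lower after quantile normalization, and 10.2% higher and 9.56% lower after the other scaling. The median log2 difference of the measured genes was -0.33 at E18 against E16 (-0.04 over all genes), -0.01 at P3 against E18 (-0.15) and -0.34 at P3 against E16 (-0.17). Of the 30 genes, 16 were highest at E16, 7 at E18 and 7 at P3, where 41% of all genes were highest at E16, 33.7% at E18 and 25.4% at P3. Lower at each step were 9 of the 30, against 25.7% of all genes.

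**Figure D1:**
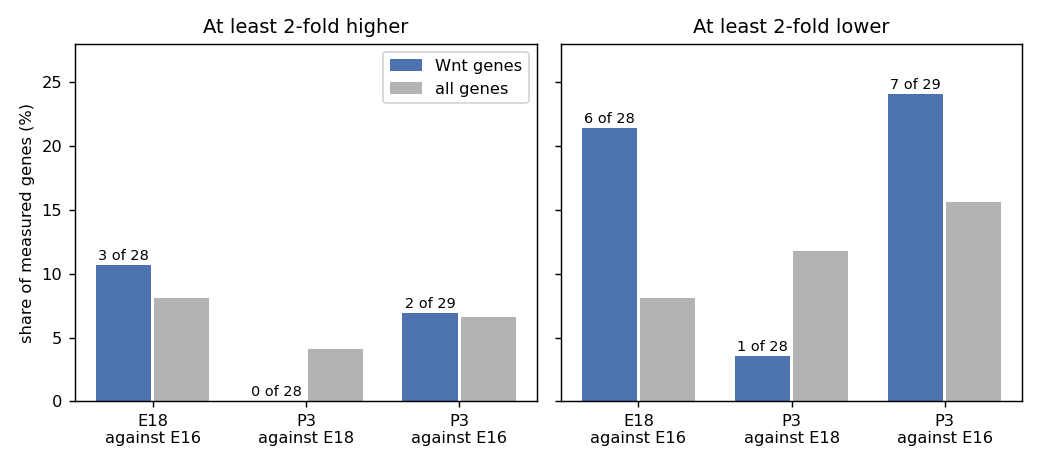
Share of measured genes at least 2-fold higher (left) and lower (right) in each comparison, in percent, for the Wnt genes (blue, with counts) and for all genes (grey). In both comparisons with E16 a larger share of the Wnt genes than of all genes was lower, whereas at P3 against E18 only 1 of 28 was past 2-fold.

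Fzd1 (a receptor gene), Ror2 (a co-receptor gene), Wnt9a (a ligand gene), Rspo1 (an R-spondin gene) and Axin2 (a feedback gene) were at least 2-fold lower than at E16 at both E18 and P3. They were 5 of the 27 Wnt genes measured in both comparisons (18.5%), against 5.55% of all genes so measured. The comparisons share the E16 array, so a high reading of that 1 array would enter both, and the count is no second result. Under the 11 alternatives that keep the 2-fold threshold it was between 3 and 6 genes, and 1 gene at 3-fold, and Fzd1 was lower in both comparisons under each. Across those 11 the share was 11.1% to 24% of the Wnt genes and 2.65% to 6.47% of all genes. At 3-fold the shares were 3.7% and 1.29%. The sequence upstream of these genes is shown because the results below turn on them. Each line gives the 250 bases before the annotated gene start, 5' to 3' on the gene's strand, from RefSeq on build GRCm38.p6. The windows are chr5:4758217-4758466 (minus strand), chr13:53286125-53286374 (minus strand), chr11:59306680-59306929 (plus strand), chr4:124986180-124986429 (plus strand) and chr11:108920099-108920348 (plus strand). Capitals mark CTTTGA, the core that TCF and LEF factors bind, read on either strand.
Fzd1: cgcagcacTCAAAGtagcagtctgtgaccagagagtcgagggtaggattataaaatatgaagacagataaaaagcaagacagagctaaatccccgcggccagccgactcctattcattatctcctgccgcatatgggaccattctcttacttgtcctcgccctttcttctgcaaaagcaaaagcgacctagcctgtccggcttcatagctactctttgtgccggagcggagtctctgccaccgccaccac
Ror2: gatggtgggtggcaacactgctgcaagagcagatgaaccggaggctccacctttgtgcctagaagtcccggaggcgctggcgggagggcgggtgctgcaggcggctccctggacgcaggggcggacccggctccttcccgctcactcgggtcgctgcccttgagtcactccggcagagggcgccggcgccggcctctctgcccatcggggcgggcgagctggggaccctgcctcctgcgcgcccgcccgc
Wnt9a: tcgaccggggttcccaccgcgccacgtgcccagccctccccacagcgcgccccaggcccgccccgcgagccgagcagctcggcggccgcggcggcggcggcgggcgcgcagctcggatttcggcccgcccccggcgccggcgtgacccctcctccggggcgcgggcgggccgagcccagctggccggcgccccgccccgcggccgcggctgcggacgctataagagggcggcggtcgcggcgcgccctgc
Rspo1: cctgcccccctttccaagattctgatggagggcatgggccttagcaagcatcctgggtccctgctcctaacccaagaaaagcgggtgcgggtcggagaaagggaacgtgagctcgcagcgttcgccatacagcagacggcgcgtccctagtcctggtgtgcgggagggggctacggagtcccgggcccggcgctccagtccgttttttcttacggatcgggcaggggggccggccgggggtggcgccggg
Axin2: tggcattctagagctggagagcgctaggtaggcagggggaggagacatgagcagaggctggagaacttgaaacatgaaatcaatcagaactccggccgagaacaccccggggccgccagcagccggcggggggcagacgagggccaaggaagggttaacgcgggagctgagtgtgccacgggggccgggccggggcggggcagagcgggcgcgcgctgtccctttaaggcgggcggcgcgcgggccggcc
Fzd1 held 1 core, on the opposite strand, starting 242 bases before the gene start, and the other 4 windows held none. Among the 40 genes, 28 had upstream windows in the RefSeq table, 34 in all, and 4 of the 34 (11.8%) held the core, those of Fzd1, Lef1, Wnt5b and Wnt11. Of all 32851 windows of this length, 13.8% held it. The longer form CTTTGATN, which contains the core, was in 2 member windows (5.88%), of Wnt5b and Wnt11, and in 3.19% of all windows. Of 7 windows of the 4 target genes, 1 held the core (14.3%) and 0 the longer form.

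Among the ligands, Wnt9a was lower at the later stages, Wnt4 and Wnt6 were higher at P3, and Wnt3a was higher at E18. Wnt9a, a ligand known from joint and skeletal development, read 340.8 at E16, 120.1 at E18 and 81.0 at P3. The E16 array stood well above both others, and relative to E16 Wnt9a was 2.84-fold lower at E18 and, as a bound, at least 4.15-fold lower at P3. Its other probe set was below the floor throughout. Wnt6, an epithelial ligand in many organs, read 87.4, 144.4 and 182.2 at E16, E18 and P3, the P3 signal being 2.08-fold the E16 signal. The probe set for Wnt6 carries the suffix that marks probes able to detect other transcripts, and a second one without it, below the floor on every array, read 36.7, 58.2 and 79.2. Wnt4, another ligand found in many epithelia, read 67.3, 125.9 and 169.1, higher by at least 2.06-fold at P3 relative to E16. A second Wnt4 probe set gave 21.1, 215.3 and 78.1, with E18 and not P3 highest, so the probe sets agree that E16 was lowest and disagree on the later order. Wnt3a, a strong activator of beta-catenin, read 136.0, 281.8 and 143.7, and was 2.07-fold higher at E18 than at E16 and 1.96-fold lower at P3 than at E18, just under the threshold.

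Wnt5a, the best known ligand of dental mesenchyme, differed by less than 2-fold in every comparison by its brightest probe set. It read 1830.0 at E16, 1417.3 at E18 and 1193.1 at P3, which made P3 1.53-fold lower than E16. A second probe set gave 1058.7, 712.8 and 486.0, 2.18-fold lower at P3, and another 199.7, 128.4 and 203.9, with P3 and E16 alike, so the size of the Wnt5a difference depended on the probe set. Wnt10a, a ligand of odontoblasts and dental epithelium whose mutation causes missing teeth in humans, read 452.3, 394.5 and 519.1, and no comparison of it passed 1.32-fold. Wnt7b, which dental epithelium expresses, read 166.6, 115.9 and 132.0, also under 2-fold throughout. The others measured lay within reach of the floor. Wnt5b (123.9, 79.9 and 67.1), Wnt7a (93.3, 70.5 and 43.0) and Wnt11 (104.1, 55.6 and 82.3) were at or above it at E16, and Wnt11 again at P3. Wnt8b (68.0, 142.4 and 105.3) was above it at E18 and P3, and Wnt9b at E18 alone, with 103.4. Wnt1, Wnt2, Wnt2b, Wnt3, Wnt8a, Wnt10b and Wnt16 were below the floor on all 3 arrays.

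**Figure D2:**
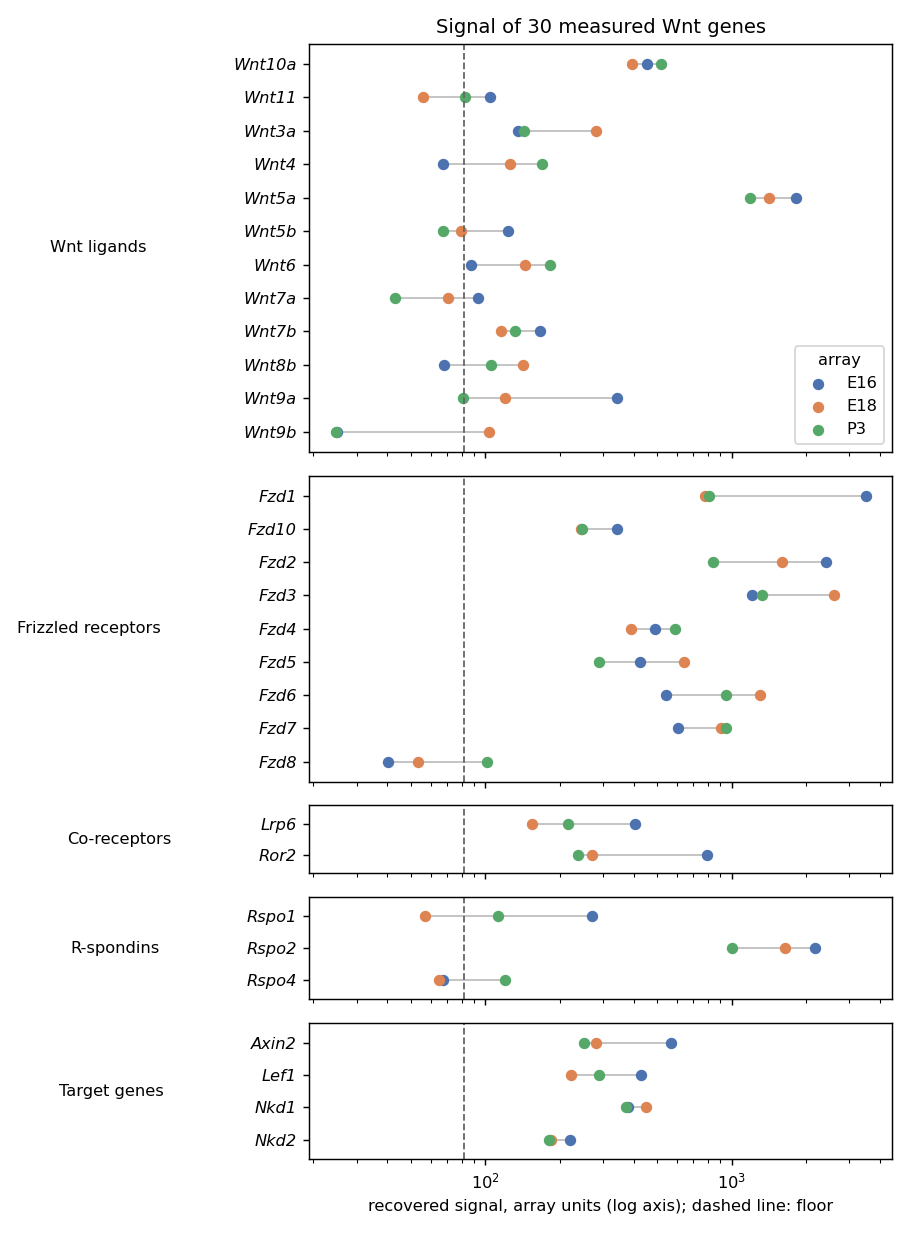
Recovered signal of the 30 genes that reached the floor on at least 1 array, by class. Each row is a gene and each point 1 array (blue E16, orange E18, green P3) on a log axis; the dashed line is the floor at 82.0. Fzd1, Ror2, Wnt9a, Rspo1 and Axin2 have their E16 point to the right of both later points, while Fzd3, Fzd6 and Wnt3a have their E18 point farthest right.

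Receptor genes went both ways. Fzd1, a receptor that signals to beta-catenin, had the largest difference among these genes at or above the floor on both arrays, and read 3514.0 at E16, 779.6 at E18 and 807.0 at P3. The later arrays were alike (1.04-fold), and Fzd1 was 4.51-fold lower at E18 and 4.35-fold lower at P3 than at E16. Its other probe set stayed below the floor, at 38.0, 16.9 and 25.2. Fzd2, a receptor for Wnt5a among others, stepped down at each stage, at 2423.0, 1602.1 and 842.4, and was 2.88-fold lower at P3 than at E16. The other Fzd2 probe sets gave 1967.5, 838.1 and 418.9, which is 4.7-fold, and 1170.6, 1083.1 and 738.9, which is 1.58-fold, all with E16 highest and P3 lowest.

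Fzd3, Fzd5 and Fzd6 were highest at E18. Fzd3, a receptor of axon guidance and planar polarity, read 1213.3, 2607.1 and 1329.8 at E16, E18 and P3, 2.15-fold higher at E18 than at E16 and 1.96-fold lower at P3 than at E18. Of its 3 other measured probe sets, 2 were higher at E18 than at E16 by under 2-fold and 1 was slightly lower, with log2 differences from -0.12 to 0.84. One of them, at 362.2, 648.9 and 231.1, was 2.81-fold lower at P3 relative to E18. Fzd6, which patterns hair in skin through planar polarity, read 539.6, 1303.1 and 946.0 and was 2.41-fold higher at E18 than at E16. A second Fzd6 probe set went the other way, at 152.0, 111.9 and 219.5, with P3 highest. Fzd5 read 425.9, 638.7 and 289.2, and was 2.21-fold lower at P3 than at E18, the single difference of at least 2-fold in that comparison among brightest probe sets. Other probe sets of Fzd3 (2.81-fold), Wnt4 (at least 2.62-fold) and Fzd2 (2-fold, just past the threshold before rounding) were lower there too. The brightest Fzd2 probe set was 1.9-fold lower in that comparison. Fzd4, the receptor for norrin in blood vessels, read 487.4, 390.1 and 591.1, Fzd7 603.5, 904.7 and 950.8, and Fzd10 340.9, 245.5 and 246.7, all under 2-fold. Fzd8, at 40.1, 53.3 and 101.3, reached the floor at P3 only, and Fzd9 on no array.

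**Figure D3:**
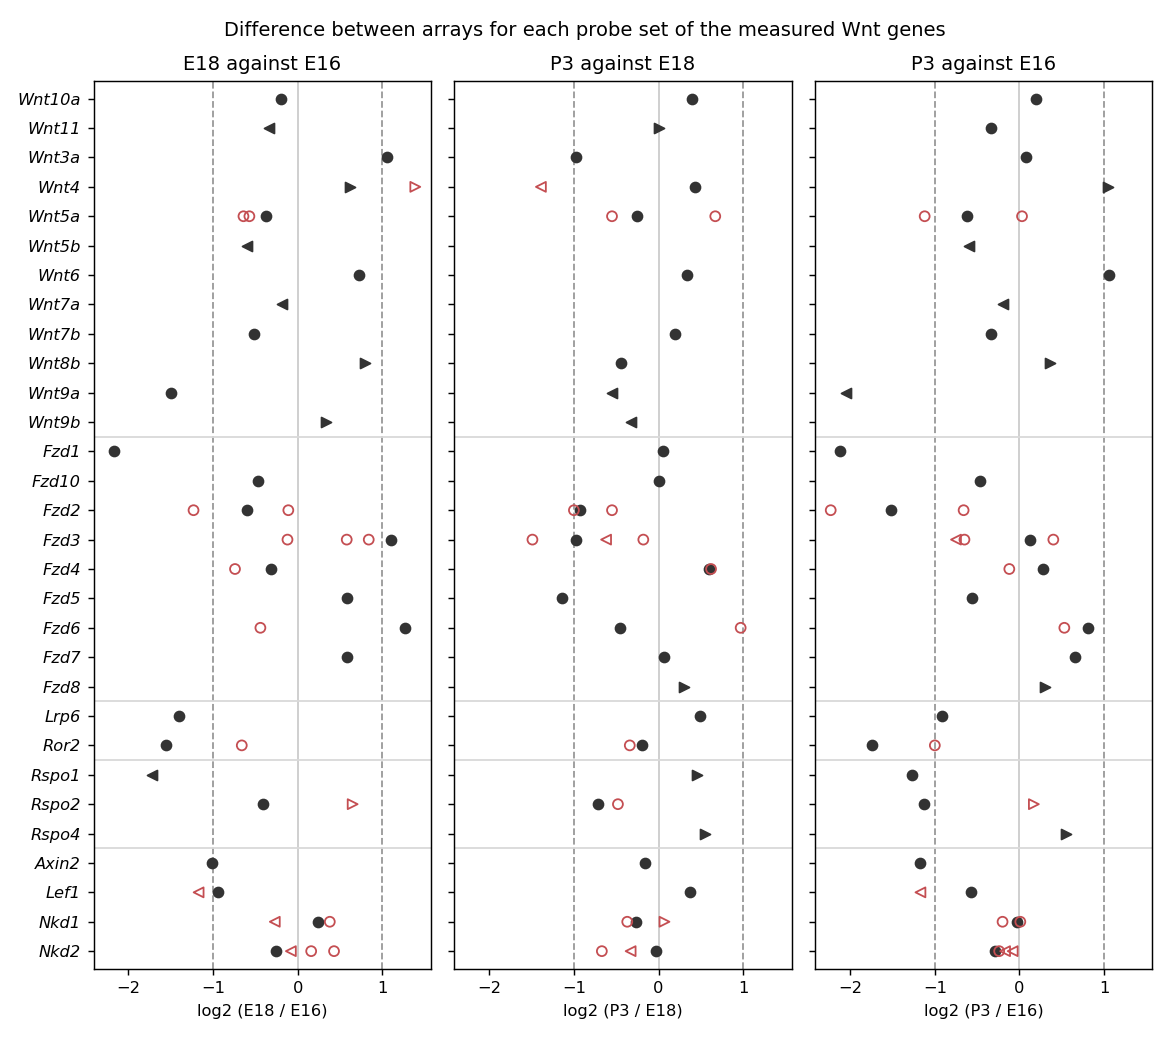
The log2 difference of each probe set in the 3 comparisons, one gene per row, grouped from top to bottom as ligands, Frizzled receptors, co-receptors, R-spondins and target genes. Filled black symbols are the brightest probe set and open red ones the others; triangles are bounds with 1 array under the floor and point away from 0, and dashed lines mark 2-fold. Ror2 has both of its probe sets on the left in each comparison with E16, whereas the 2 probe sets of Fzd6 lie on opposite sides of 0 at E18 against E16.

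Both measured co-receptor genes were lower at E18 than at E16. Ror2, the receptor tyrosine kinase that pairs with Wnt5a, read 792.5 at E16, 271.1 at E18 and 237.7 at P3, 2.92-fold lower at E18 and 3.33-fold lower at P3 than at E16. Its second probe set gave 395.1, 249.4 and 197.6 with the same order, 1.58-fold lower at E18 and 2-fold lower, just short of the threshold before rounding, at P3. Lrp6, the canonical co-receptor, read 405.6, 153.9 and 216.1, 2.64-fold lower at E18 and 1.88-fold lower at P3 than at E16, so E18 was its lowest stage. A second Lrp6 probe set under the floor went the other way, at 9.0, 45.7 and 52.7. Lrp5 was below the floor, between 4.6 and 7.3, by its only probe set.

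R-spondins, secreted proteins that keep Frizzled receptors on the cell surface, were measured for 3 of 4 genes. Rspo1 read 270.8, 56.9 and 112.3 at E16, E18 and P3, at least 3.3-fold lower at E18 and 2.41-fold lower at P3 than at E16. Rspo2, needed for limb and lung growth in mice, read 2189.8, 1650.0 and 1003.1 and was 2.18-fold lower at P3 than at E16. Its second probe set gave 67.9, 128.5 and 92.3, highest at E18, and so did not share that direction. Rspo4, whose mutation causes absent nails in humans, read 67.3, 64.6 and 120.5 and was above the floor at P3 only. Rspo3 stayed below it, at 77.4, 17.7 and 39.6.

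Of the 4 target and effector genes Axin2 was at least 2-fold lower at the later stages, and the others were not by their brightest probe sets. Axin2, a scaffold of the beta-catenin destruction complex and the usual readout of canonical signalling, read 566.1 at E16, 280.2 at E18 and 251.3 at P3. That was 2.02-fold lower at E18 and 2.25-fold lower at P3, both close to the threshold. Both differences were under 2-fold after quantile normalization (log2 differences of -0.90 at E18 and -0.89 at P3), with the mean of all probe sets (-0.51 and -0.59) and after scaling to genes above the floor (-0.93 and -0.88). Its other probe set was below the floor, at 15.5, 18.0 and 33.0. Lef1, which carries beta-catenin to DNA, read 428.9, 223.2 and 289.0, 1.92-fold lower at E18 and 1.48-fold lower at P3 than at E16. Its second probe set gave 184.7, 14.5 and 4.0, at least 2.25-fold lower at both later stages, so both Lef1 probe sets were highest at E16. Nkd1 and Nkd2 encode inhibitors that bind Dishevelled and are themselves induced by Wnt signals. Nkd1 read 379.1, 448.3 and 370.9 and Nkd2 221.0, 184.0 and 180.5, and no measured probe set of either gene differed by 2-fold in any comparison.

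The genes highest at E18 had company among markers of other cells. Of 11 measured genes of dental epithelium, 9 were higher at E18 relative to E16 by 2-fold or more and 0 lower, and 10 were lower and 0 higher at P3 relative to E18. Krt5 read 2068.6, 4821.4 and 752.2 at E16, E18 and P3, Epcam 1052.0, 2358.1 and 368.1 and Trp63 532.1, 2400.4 and 533.5. The summed signal of the epithelial list was 2.86 times the E16 value at E18 and 0.665 times at P3, while Wnt3a stood at 2.07 and 1.06 times, Fzd3 at 2.15 and 1.1, Fzd5 at 1.5 and 0.679 and Fzd6 at 2.41 and 1.75. Those are brightest probe sets, and a second one of Fzd6 was lowest at E18. Wnt8b, Wnt9b and Nkd1 were highest at E18 too, as was the sum of the Schwann cell genes (344.0, 400.4 and 290.7). Wnt4, at least 2.06 times its E16 signal at P3, and Wnt6, at 2.08 times, were highest at P3, as were the sums of several marker lists. Wnt10a, Fzd4, Fzd7, Fzd8 and Rspo4 were highest at P3 too. The enamel genes summed to 10.9 times the E16 value at P3, odontoblast genes to 37.1 times and macrophage genes to 3.67 times. Cartilage genes summed to 2.35 times and dental mesenchyme genes, the papilla's own markers, to 1.26 times. The median log2 differences at P3 against E16 were 2.70 (enamel), 4.46 (odontoblast), 1.48 (macrophage), 0.75 (cartilage) and -1.50 (dental mesenchyme). The part of these cells in the Wnt values was not tested.

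**Figure D4:**
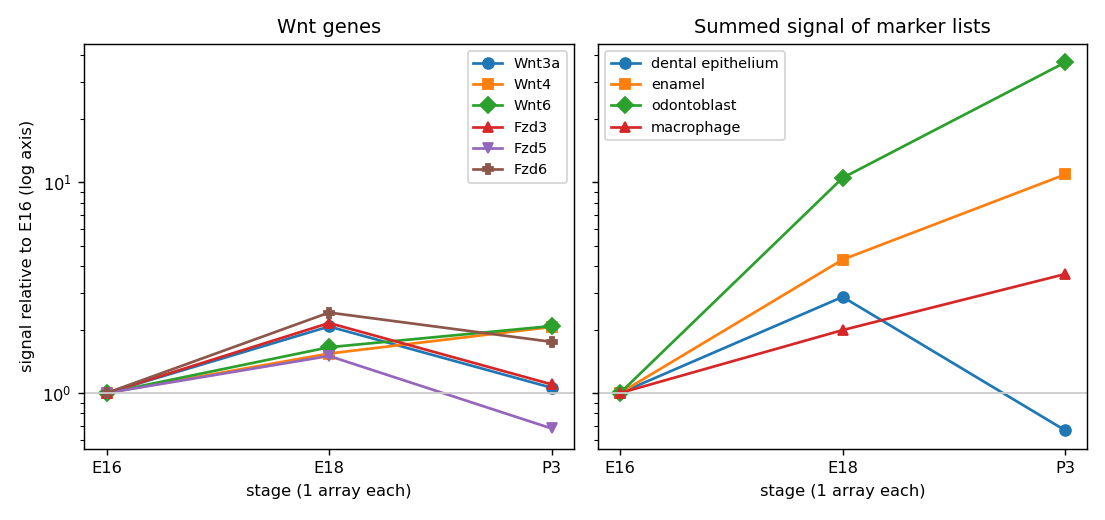
Signal relative to E16 (log axis) at each stage, 1 array each, for 6 Wnt genes (left) and for the summed signals of 4 marker lists (right). Wnt3a, Fzd3, Fzd5 and Fzd6 peak at E18, as does the dental epithelium list, and Wnt4 (drawn against the floor, since its E16 signal is under it) and Wnt6 are highest at P3, as are the enamel, odontoblast and macrophage lists. Only the brightest probe sets are drawn. A second Fzd6 probe set was lowest at E18, and a second Wnt4 probe set was highest at E18.

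Dental mesenchyme markers went both ways. Of 11 measured, 7 were at least 2-fold lower and 1 higher at E18 than at E16, and 7 were lower and 3 higher at P3 than at E16. Lhx6 read 1675.3, 376.4 and 364.2 at E16, E18 and P3, Twist1 925.0, 211.6 and 222.5 and Prrx1 2321.1, 826.7 and 818.5, each lower at E18 and little changed after it. The transcription factor gene Dlx2 went the other way, at 293.8, 2489.1 and 989.4, and Msx1 read 927.4, 720.8 and 1666.1. The structural genes Vim (1319.6, 1980.6 and 3748.7) and Col1a1 (27.6, 159.7 and 6650.3) were highest at P3. A second Col1a1 probe set gave 1341.9, 2096.4 and 2734.1, above the floor at E16 and 2.04-fold higher at P3 than at E16. The size of the Col1a1 difference thus depended on the probe set. The summed signal of the list was 0.651 times the E16 value at E18 and 1.26 times at P3. Col1a1 alone gave 6650.3 of the P3 sum of 16101.0. The median log2 difference of the list was -1.59 at E18 and -1.50 at P3 against E16, so sum and median went opposite ways at P3. Of 4 measured endothelial markers 2 were lower at E18 than at E16, and both measured erythroid markers were.

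Other genes of the pathway were grouped in lists by role. At P3 against E16, 15.6% of all measured genes were lower and 6.58% higher, with a median log2 difference of -0.17. Of 22 measured genes of the cytoplasmic and nuclear machinery, 4 were at least 2-fold lower and 1 higher at P3 than at E16 (median log2 difference -0.21). Beta-catenin itself (Ctnnb1) read 1134.8, 1727.3 and 1195.0 at E16, E18 and P3, 1.05-fold higher at P3 than at E16. The co-repressor gene Tle1 was 5.1-fold lower at P3 than at E16 (1.97-fold by its other probe set) and Tle2 3.13-fold higher. Casein kinase gene Csnk1e was 2.58-fold lower (1.59-fold and at least 1.42-fold by 2 others). Gsk3b, the kinase that marks beta-catenin for breakdown, read 3.22-fold lower on its brightest probe set, while the 5 others ranged from 1.47-fold lower to 1.85-fold higher. Of 13 other receptor and planar polarity genes, 2 were higher and 0 lower. Prickle1, a planar polarity component, was 3.59-fold higher at P3 than at E16 (1.06-fold by another probe set) and Prickle2 1.87-fold, while Ror1, a relative of Ror2, was 1.89-fold lower. Of 5 genes of ligand secretion and release 1 was at least 2-fold lower, Notum, a Wnt-inactivating enzyme, by 2.41-fold. Gpc3 was 1.91-fold lower at P3 and 3.01-fold lower at E18 than at E16. Gpc4 was 1.58-fold higher at P3 than at E16 (2.32-fold by another probe set). Wls, the carrier that takes Wnt proteins to the surface, was 1.49-fold higher (1.31-fold and 2.16-fold by 2 other probe sets).

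Other genes known to respond to beta-catenin included 6 that were at least 2-fold lower and 1 that was higher at P3 than at E16, of 12 measured (median log2 difference -0.81). At E18 against E16 4 of 13 were higher and 3 lower (median -0.36), where 8.09% of all genes were higher and 8.13% lower (median -0.04). Apcdd1, a membrane inhibitor of Wnt signalling, was 4.35-fold lower, and 5 other probe sets gave 1.37-fold to 6.56-fold lower. Fgf3, a growth factor of the papilla, read 419.5, 283.9 and 120.2 and was 3.49-fold lower, and Twist1 was 4.16-fold lower. In contrast Ccnd1, which encodes cyclin D1, read 810.1, 3818.4 and 1452.3, 4.71-fold higher at E18 than at E16 and 1.79-fold higher at P3, with E18 highest by all 3 of its probe sets. The 2 others were 2.64-fold and 2.83-fold higher at P3 relative to E16. Among 9 measured secreted antagonists 3 were lower at P3 relative to E16 and 0 higher (median log2 difference -0.55). Dkk1, which blocks Lrp5 and Lrp6, was 5.8-fold lower and is also one of the response genes. Notum, of the secretion list, and Twist1, of the mesenchyme markers, were among the 6 lower response genes too, so these counts are not separate.

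Probe sets of the same gene are the one look at measurement error that these arrays give, and it misses what a whole array shares. At E18 against E16, 8 of the 40 genes had at least 2 probe sets measured on both arrays, and the median range between them was 0.79 on the log2 scale, against 0.70 over 4047 genes of the array. In 3 of the 8 the probe sets had opposite signs (37.5%, against 50.4%). At P3 against E16 the median range was 0.57 over 8 genes (0.71 over 3982 genes), with opposite signs in 4 (50%, against 41.3%). At P3 against E18 it was 0.45 over 9 genes (0.64 over 3994 genes), with opposite signs in 2 (22.2%, against 45.1%). When a gene counted only if every measured probe set passed 2-fold the same way, 5 of the 6 lower genes at E18 against E16 still counted and 1 of the 3 higher ones. At P3 against E16, 4 of the 7 lower genes and both higher ones still did. Of all measured genes, 4.89% were then lower and 4.88% higher at E18 against E16, and 9.48% lower and 4.42% higher at P3 against E16. All of the Wnt genes that still counted had 1 measured probe set, so the criterion could not go against them.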

How the data were processed

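Total RNA of 3 pools of dental papillae was measured, 1 array for each of E16, E18 and P3, with Affymetrix probe set names. The authors deposited ratios; the submitters' processing notes list GCOS with no version, and the scaling is not given in the sources used here. From the values, 40754 probe sets (90.4%) had been divided by their own middle value, and the other 4347 by 10 signal units. Among those 4347, 99.98% of values lay within 0.01 of whole steps, whose sizes gave array factors of 0.7177 (E16) and 1.0802 (E18) relative to P3. Signals were recovered as the smallest whole numbers of steps that fitted all 3 ratios within a relative 3e-07 with a middle signal of at least 10. Among probe sets with known steps 17.2% shared a common factor, so a level may be understated and a signal placed below the floor for that reason. The design had assumed deposited signals. Array medians were 82.0 (E16), 81.8 (E18) and 82.3 (P3). The number of arrays limits precision.

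Symbols came from the platform annotation, taking probe sets with 1 symbol; all 40 member genes matched by gene ID with 0 symbols changed. No build is named in the files, so no gene positions are given beyond the RefSeq windows. Members and lists were chosen with earlier results of these data known. All members are named; from each other list, those named are up to 4 with the largest P3 against E16 difference measured on both arrays, and further ones (Ctnnb1, Ccnd1, Krt5, Epcam, Trp63, Lhx6, Prrx1, Dlx2, Msx1, Vim, Col1a1) were chosen after their values were seen. Alternatives were 8 fixed settings and 4 added after seeing the data. Recovery and calls were tested on simulated data. Python 3.11.15, numpy and pandas were used.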

Additional observations from a re-analysis of the deposited data

How the results depend on the processing

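The 9 counts and medians of the Wnt genes kept within 1.5 times (counts) or 0.1 on the log2 scale (medians) when arrays were scaled to the median of all probe sets, which were already alike. Shares and medians of all measured genes stand in brackets below. Quantile normalization gave 4 of 29 genes higher at P3 against E16 (9.89%) and a median of -0.20 (0.02). At P3 against E18 it gave 0 of 28 lower (7.18%) and a median that turned to 0.11 (0.03). With the floor at the 25th percentile, 5 of 37 genes were higher at E18 than at E16 (9.2%). At P3 against E18 1 of 36 was higher (6.58%), 2 were lower (12.1%) and the median turned to 0.03 (-0.10). With the floor at 2 times the pooled median, 0 of 22 were higher at P3 than at E16 (6.03%), with a median of -0.51 (-0.23). Without a floor, 5 of 28 were higher at E18 than at E16 (10.4%) and 2 of 28 lower at P3 than at E18 (14.1%). The mean of all probe sets gave 0 of 29 higher at P3 than at E16 (3.79%), with a median of -0.20 (-0.12). It gave a median of -0.22 (-0.04) at E18 against E16 and 0 of 28 lower at P3 than at E18 (6.28%). Probe sets without a letter suffix gave 1 of 27 higher at P3 against E16 (6.4%) and 2 of 27 lower at P3 against E18 (9.8%). At 3-fold, 0 of 29 were higher (2.58%) and 3 lower (5.36%) at P3 than at E16. At E18 against E16 0 of 28 were higher (2.39%) and 2 lower (1.99%), and at P3 against E18 0 of 28 were lower (3.35%). Of the alternatives added after seeing the data, scaling to the median of genes above the floor gave 4 of 29 lower at P3 than at E16 (9.56%). The median there was -0.05 (0.09), and at E18 against E16 it was -0.22 (0.04). At P3 against E18 0 of 28 were lower (7.73%), with the median turned to 0.17 (0.05). The mean of probe sets above the floor gave 1 of 29 higher at P3 than at E16 (5.29%), and leaving out bounds gave 1 of 22 (5.92%). Asking every probe set to agree gave 4 of 29 lower at P3 against E16 (9.48%) and 1 of 28 higher at E18 against E16 (4.88%). Over all genes, those higher at P3 than at E16 went from 802 to 1206 after quantile normalization and 1257 after scaling to genes above the floor, those higher at P3 than at E18 from 494 to 780 and 778, and those lower at P3 than at E18 from 1426 to 870 after quantile normalization.

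For the 19 named differences of at least 2-fold, 142 of 179 alternative values stayed past 2-fold the same way and 34 kept the direction under 2-fold. Many of these alternatives could not change a given value, so the count of 142 does not measure how firm the differences are. For Axin2 at P3 against E16, both other floors and no floor returned the main log2 difference of -1.17, since its signals lay above each floor. Where a gene had a single probe set, the settings on probe sets could not move it. Another probe set turned the direction of 3, to 0.17 for Rspo2 (P3 against E16), and to -0.12 for Fzd3 and -0.44 for Fzd6 (E18 against E16). Those of Fzd1, Ror2, Fzd2 and, at P3 against E16, Wnt9a stayed past 2-fold in all 9 alternatives to normalization, floor and value per gene; single probe sets of Ror2 and Fzd2 did not. The cause of these changes was not tested. No paired analysis was possible because each stage has 1 array. Signals near the floor limit what can be said of 10 genes that never reached it.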
